A study of Mus musculus with 8 samples.

Results

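Myod1, Myf5, Myog and Myf6 encode the 4 myogenic regulatory factors, and they were chosen by name from the mouse annotation, 4 of 21911 protein-coding genes. They were described through the peaks of 6 chromatin immunoprecipitation (ChIP-seq) lists that lay in the gene body or within 100 kb of a transcription start site (TSS). Myf5 and Myf6 are neighbours on chromosome 10 and were counted as 1 locus, which left 3 loci. These loci held 179 of the 189391 peaks in the lists, of which 26 were among the 23188 peaks of the glucocorticoid receptor (GR).

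The myogenic regulatory factors are basic helix-loop-helix transcription factors that bind E boxes (CANNTG) as dimers with E proteins. MyoD and Myf5 commit cells to the muscle lineage, myogenin drives the differentiation of myoblasts into fibres, and Myf6, also called MRF4, is the member best known for its expression in adult fibres. GR is the nuclear receptor for glucocorticoids, hormones that raise protein breakdown in skeletal muscle, and it binds glucocorticoid response elements or is brought to DNA by other factors. H3K4me3 marks promoters, H3K4me1 marks enhancers and the flanks of promoters, H3K27ac marks active promoters and enhancers, RNA polymerase II (Pol2) marks transcribed genes, and CTCF is the factor that anchors many chromatin loops.

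The study mapped GR binding and chromatin state in skeletal muscle nuclei. The ChIP libraries for GR, Pol2, H3K27ac, H3K4me3, H3K4me1 and CTCF and the 2 inputs all came from mice of the C57/Bl6J strain that were wild type and 10 to 12 weeks old, with no treatment, transgene or deletion named in the labels. Each antibody had 1 library, so there was no comparison between groups of mice, no replicate error and no test, and every value below describes these libraries. Read depth is unknown, and the labels name neither which muscles were used nor whether animals were pooled.

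Beside the 4 genes, the share of all protein-coding genes or of all peaks is given as background. Such shares carry exact Clopper-Pearson 95% intervals that cover counting error only. The lists held 23188 GR, 20192 Pol2, 44151 H3K27ac, 19811 H3K4me3, 75523 H3K4me1 and 6526 CTCF peaks. The label was checked on markers: a Pol2 peak lay within 1 kb of a TSS at 11 of 12 muscle fibre genes, 5 of 11 satellite cell genes, 5 of 6 fibroblast genes, 1 of 6 endothelial genes, 1 of 6 immune genes, 1 of 4 Schwann cell genes, 0 of 3 adipocyte genes and 0 of 4 liver genes, against 47.0% of all protein-coding genes. By H3K4me3 the muscle fibre genes did not stand apart, with 9 of 12, beside 9 of 11 satellite cell, 6 of 6 endothelial and 5 of 6 fibroblast genes. H3K4me3 was at 1 of 6 immune, 2 of 4 Schwann cell, 0 of 3 adipocyte and 0 of 4 liver genes, against 61.5% of all genes. Muscle holds several cell types, and a mark in few cells cannot be told apart from a weak mark in many. No part of the results below was assigned to a cell type.

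The 4 genes fell into 4 different states at their start sites. Myod1 had GR, Pol2, H3K27ac, H3K4me3 and H3K4me1 peaks within 1 kb of its TSS. Myf6 had the same lists without H3K4me1. Myog had H3K27ac and H3K4me1 without Pol2, H3K4me3 or GR. Myf5 had H3K4me1 alone. None of the 4 had a CTCF peak within 1 kb. The H3K4me1 states depend on the rule. With a window of 5 kb all 4 genes had H3K4me1, with the midpoint of a peak required in the window Myog and Myf5 had it and Myod1 did not, and in the widest 50% of the list Myod1 and Myog had it and Myf5 did not.

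GR and Pol2 peaks were thus present at 2 of the 4 start sites each, against 43.3% (42.7 to 44.0%) and 47.0% (46.4 to 47.7%) of all protein-coding genes. H3K27ac was present at 3 of 4, against 52.4%, and H3K4me3 at 2 of 4, against 61.5%. H3K4me1 was present at 3 of 4, against 65.8%, and CTCF at 0 of 4, against 7.54%. Among genes with H3K4me3 at a start site the shares were 69.7% for GR, 76.1% for Pol2, 84.3% for H3K27ac, 94.1% for H3K4me1 and 11.5% for CTCF. Windows were taken around every annotated TSS of a gene, and each of the 4 genes has 1. Genes with several TSSs were thus searched over more bases. With the 5′ end of each gene alone, the shares of all genes were 39.6% for GR and 43.6% for Pol2. A list of 4 genes is too short to set any of these counts apart from its background. The combinations differed more in how common they were. The Myod1 combination was found at 7235 genes, 33.0% of all, and the Myf5 state of H3K4me1 alone at 1504 genes, 6.86%. The Myf6 combination was found at 347 genes, 1.58% (1.42 to 1.76%), and the Myog combination at 50 genes, 0.228% (0.169 to 0.301%).

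**Figure D1:**
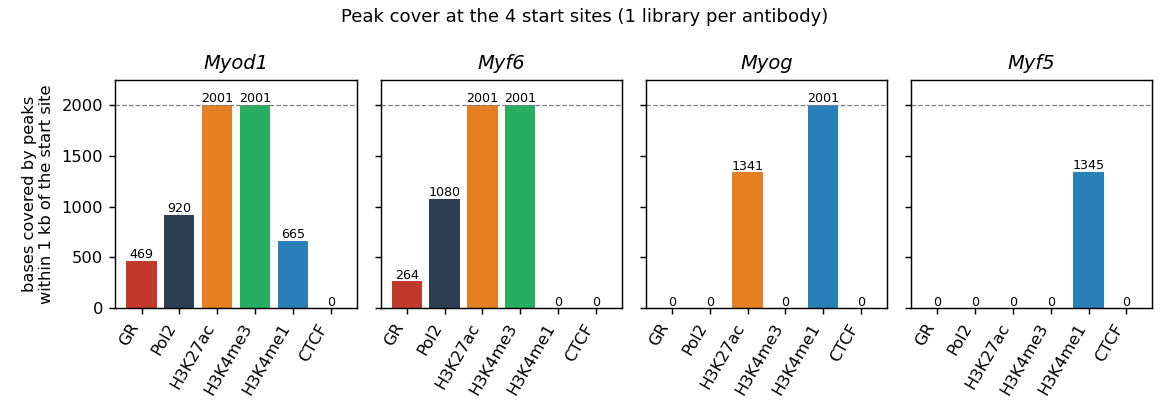
Bases covered by peaks of each of the 6 lists in the 2001 bases from 1 kb before to 1 kb after the TSS of Myod1, Myog, Myf5 and Myf6 (1 library per list, no error bars). Myod1 and Myf6 are fully covered by H3K27ac and H3K4me3, Myog is fully covered by H3K4me1, and Myf5 has 1345 covered bases of H3K4me1 and none of any other list.

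Myod1, the gene for the factor that can convert other cell types to muscle, lies on the plus strand of chromosome 7 (GRCm38, chr7:46376474-46379099, 3 exons). H3K4me3 covered its start site in 1 peak of 3604 bases (chr7:46374760-46378363), and 0.757% of H3K4me3 peaks were at least as wide. The deposited value of this peak read as fold enrichment was 25.3, against a median of 19.3 over the list. Of the list, 41.8% had at least that fold. H3K27ac covered chr7:46375068-46377914, 2847 bases, a width reached by 0.897% of that list. Width and fold therefore placed the Myod1 H3K4me3 peak differently, among the widest but near the middle by fold.

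The Myod1 GR peak spanned chr7:46376095-46376563, 469 bases that include the TSS, and 7.28% of all GR peaks were at least as wide. A Pol2 peak of 607 bases (chr7:46376002-46376608) enclosed it, and another of 313 bases lay in the first exon. Pol2 peaks covered 17.1% of the Myod1 gene body, a share reached by 1.47% of genes. The gene is short, at 2626 bases, so a start-site peak takes a large share of it, and among the 2380 genes of at most 3000 bases, a limit set after the values were seen, 6.97% (5.98 to 8.07%) reached it. Among the genes with Pol2, H3K27ac and H3K4me3 at a start site, 86.8% (86.1 to 87.4%) also had GR, so the GR peak at Myod1 was the usual state for such a gene. H3K4me1 peaks flanked the Myod1 TSS on both sides and left 1536 bases free between them.

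GR peaks also lay upstream of Myod1. In the stretch from the TSS to where another gene is nearer, 4 GR peaks had midpoints 36521, 34741, 26201 and 23029 bases upstream, with widths of 249, 372, 165 and 339 bases. All 4 were intergenic and overlapped H3K4me1, and all but the one 26201 bases upstream also overlapped H3K27ac, which together without H3K4me3 is called the enhancer class here. These 3 peaks each sat in a gap between H3K27ac peaks that came within 500 bases on both sides. The same stretch held 14 H3K27ac peaks of 130 to 770 bases and 4 H3K4me1 peaks of 578 to 11590 bases, no CTCF peak, and 1 small peak each of Pol2 (142 bases, 5257 bases upstream) and H3K4me3 (436 bases, 4810 bases upstream, deposited fold 5.61). The core enhancer and the distal regulatory region of Myod1 are known regulatory elements upstream of the gene in mouse. Which peak, if any, matches either element was not examined.

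The 200 bases around the midpoint of each of these 4 GR peaks are shown because all 4 held the E box CAGCTG, a hexamer bound by MyoD and other helix-loop-helix factors. Letters are from RefSeq's GRCm38.p6 genome, and capitals mark CAGCTG and CAGGTG and, on either strand, the hexamer AGAACA, which is 1 arm of the glucocorticoid response element.
Myod1 upstream 36521, chr7:46339854-46340053 (plus strand): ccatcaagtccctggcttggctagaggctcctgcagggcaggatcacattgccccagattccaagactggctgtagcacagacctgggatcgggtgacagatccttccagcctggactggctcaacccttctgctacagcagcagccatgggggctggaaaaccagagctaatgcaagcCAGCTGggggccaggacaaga
Myod1 upstream 34741, chr7:46341634-46341833 (plus strand): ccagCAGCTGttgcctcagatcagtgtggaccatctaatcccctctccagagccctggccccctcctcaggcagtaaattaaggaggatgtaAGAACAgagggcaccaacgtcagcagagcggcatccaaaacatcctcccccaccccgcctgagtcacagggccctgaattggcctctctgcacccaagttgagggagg
Myod1 upstream 26201, chr7:46350174-46350373 (plus strand): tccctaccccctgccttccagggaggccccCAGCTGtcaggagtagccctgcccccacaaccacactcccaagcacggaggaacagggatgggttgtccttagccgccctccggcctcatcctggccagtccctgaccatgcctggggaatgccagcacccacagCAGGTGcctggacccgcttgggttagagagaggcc
Myod1 upstream 23029, chr7:46353346-46353545 (plus strand): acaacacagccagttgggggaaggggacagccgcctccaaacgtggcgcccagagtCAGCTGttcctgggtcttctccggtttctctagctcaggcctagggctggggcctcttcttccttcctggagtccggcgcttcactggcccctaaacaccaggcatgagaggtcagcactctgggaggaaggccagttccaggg
The peak 34741 bases upstream was the only one of the 4 with AGAACA, and the peak 26201 bases upstream held CAGGTG as well. The GR peak over the Myod1 TSS also held CAGCTG, so 5 of the 5 GR peaks nearest to Myod1 had it, against 18.2% (17.7 to 18.7%) of all GR peaks. That comparison was chosen after its values were seen, and it is a match of letters in a window, not a measured binding site. The share of all GR peaks includes those at promoters and was not matched by histone marks.

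Another 6 GR peaks in the Myod1 window lay nearer to other genes. Otog, on the upstream side, was nearest to 2 of them, and Kcnc1, which encodes a voltage-gated potassium channel and starts 20023 bases downstream of Myod1, to 4. Kcnc1 had its own GR, Pol2, H3K27ac, H3K4me3 and H3K4me1 peaks within 1 kb of a TSS. The 11 GR peaks of the Myod1 window compare with a median of 3 over all protein-coding genes, and 11.9% of genes had at least 11. For H3K27ac the window held 36 peaks, against a median of 6, and 2.23% of genes had at least 36. Of these 36, 15 lay nearest to Myod1.

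**Figure D2:**
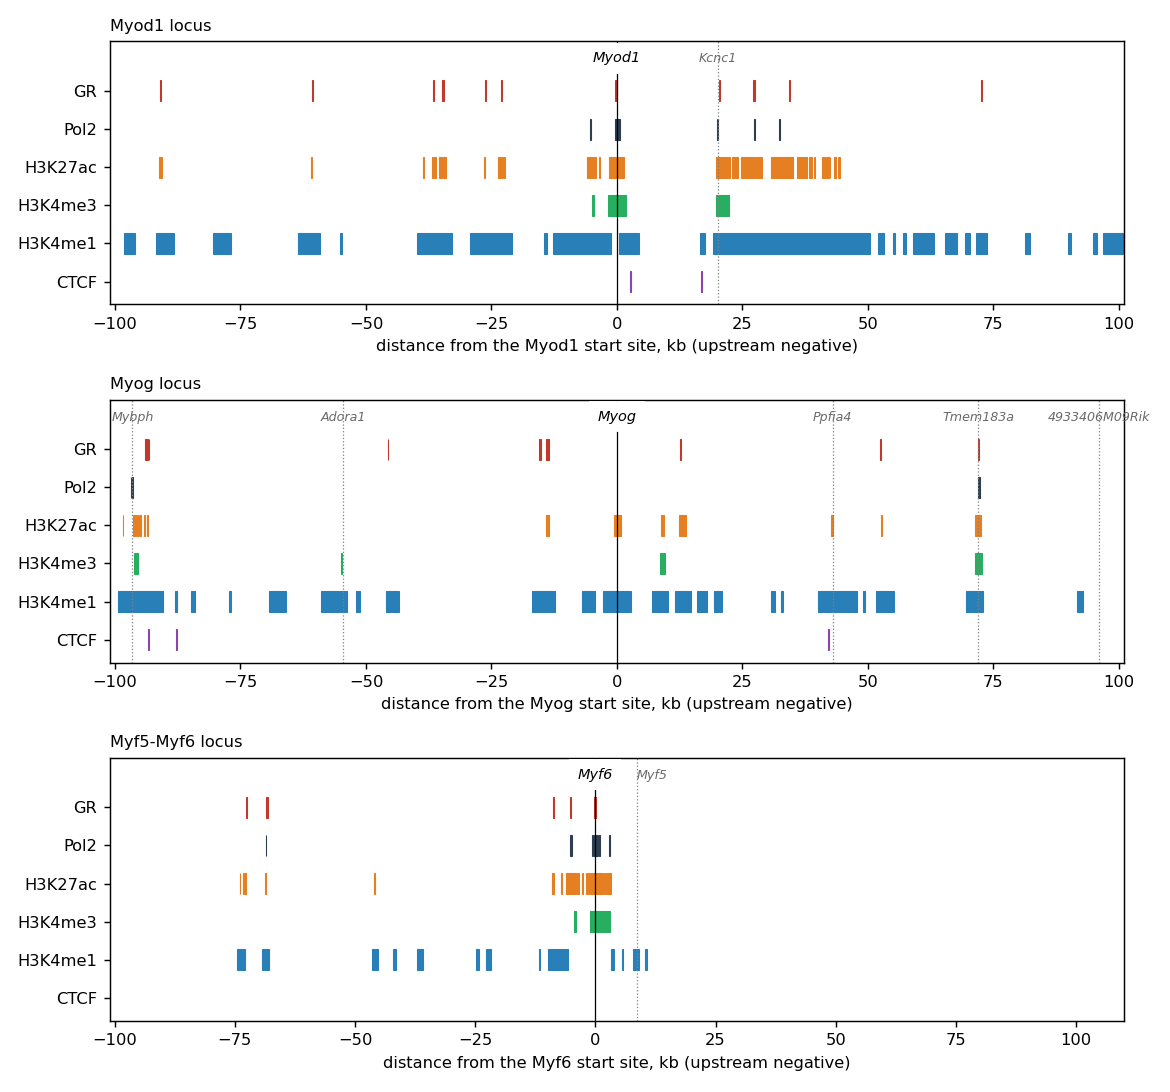
Peaks of the 6 lists (coloured bars) against distance in kb from the TSS of Myod1, Myog and Myf6, in the 100 kb windows of the 3 loci, with the 5′ ends of neighbouring genes as dotted lines. H3K27ac stands both upstream of Myod1 and over Kcnc1, GR peaks stand in a group about 14 kb upstream of Myog, and the downstream side of Myf5 and Myf6 holds no peak beyond the Myf5 gene.

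Myf6, on the minus strand of chromosome 10 (chr10:107492853-107494737, 3 exons), carried the widest H3K4me3 and the most Pol2 cover of the 4 genes. Its H3K4me3 peak of 4081 bases (chr10:107491685-107495765) covered the whole gene body, and 0.394% of the list was at least as wide. Its deposited fold was 16.8, below the list median of 19.3. H3K27ac covered 2829 bases (chr10:107493092-107495920), a width reached by 0.911% of the list. Pol2 covered 38.9% of the Myf6 gene body, a share reached by 0.575% of genes, with the largest peak of 705 bases over the TSS. Among genes of at most 3000 bases, which include Myf6 with its 1885, 2.23% (1.67 to 2.90%) reached it. The GR peak over the Myf6 TSS spanned chr10:107494674-107494937, 264 bases, and 34.0% of GR peaks were at least as wide.

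Myf6 differed from Myod1 in H3K4me1. No H3K4me1 peak lay within 1 kb of the Myf6 TSS, and the stretch free of H3K4me1 around it was 8798 bases long, against 1536 bases at Myod1. Such a stretch is not rare: of 5288 genes with H3K4me3 at a start site and no H3K4me1 on the gene's 5′ end, the median was 2415 bases and 36.6% reached that of Myf6. This measure was added after the values were seen.

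Upstream of Myf6, a GR peak of 267 bases (chr10:107499756-107500022) with its midpoint 5152 bases from the TSS lay within a Pol2 peak of 376 bases and an H3K27ac peak of 2014 bases, and overlapped neither H3K4me1 nor H3K4me3. GR peaks with H3K27ac and no H3K4 methylation were 0.811% of all GR peaks (0.699 to 0.935%). An H3K4me3 peak of 448 bases, with a deposited fold of 8.50, lay nearby without touching the GR peak. On the other side an H3K4me1 peak of 4343 bases (chr10:107500342-107504684) also came close without touching it. Both overlapped the same H3K27ac peak, so the lack of H3K4 methylation at this GR peak depends on the overlap rule. The 200 bases around the midpoint of this GR peak are shown because it joins GR, Pol2 and H3K27ac away from any annotated start site. Capitals mark AGAACA, the only match here to the motifs printed in capitals above.
Myf6 upstream 5152, chr10:107499790-107499989 (plus strand): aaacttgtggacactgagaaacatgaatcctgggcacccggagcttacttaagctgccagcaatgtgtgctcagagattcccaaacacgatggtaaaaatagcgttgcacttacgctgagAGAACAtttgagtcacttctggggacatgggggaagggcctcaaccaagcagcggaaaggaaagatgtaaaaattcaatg
The next GR peak, 8625 bases upstream and 197 bases wide, was of the enhancer class. The last 2 of the locus lay 68383 and 72647 bases upstream in introns of Ptprq, a receptor-type phosphatase gene. The one at 68383 bases was of the enhancer class and also overlapped Pol2, and the one at 72647 bases overlapped no list.

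Myog, on the plus strand of chromosome 1 (chr1:134289989-134292548, 3 exons), had an uncommon combination of marks. H3K27ac formed a peak of 816 bases over the TSS (chr1:134289974-134290789) and a peak of 525 bases just upstream of it, and a single H3K4me1 peak of 5482 bases (chr1:134287293-134292774) covered the whole gene. The nearest H3K4me3 peak was 8628 bases from the TSS, in Ppfia4, and the nearest Pol2 peak was 71820 bases away, at Tmem183a. H3K27ac without H3K4me3 at a start site was found at 128 genes, 0.584% of all, and 96 of these, 75.0% (66.6 to 82.2%), had no Pol2 there either, so the missing Pol2 peak at Myog was the usual state for such a gene.

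The promoter of Myog is shown because a MEF3 site and E boxes in it are known elements of its control in mouse. It comes from RefSeq's GRCm38.p6 promoter table, runs from 250 bases before to 50 after the RefSeq start, which is 15 bases downstream of the TSS used above, and has the E boxes (CANNTG) and MEF3 (TCAGGTTTC) in capitals.
Myog promoter, chr1:134289754-134290053 (plus strand): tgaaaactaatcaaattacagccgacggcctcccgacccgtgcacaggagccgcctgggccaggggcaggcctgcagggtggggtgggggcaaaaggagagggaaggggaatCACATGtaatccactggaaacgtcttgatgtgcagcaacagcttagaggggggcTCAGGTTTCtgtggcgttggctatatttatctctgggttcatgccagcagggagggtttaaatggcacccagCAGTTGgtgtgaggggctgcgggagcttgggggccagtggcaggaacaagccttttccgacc
The E boxes begin at -138 and -12 and the MEF3 match at -84, counted from the RefSeq start base as 0. An E box occurred in 72.3% of the promoters in the table and MEF3 in 0.429%. Of the 4 genes, Myog and Myf5 matched an entry of the table, and Myod1 and Myf6 did not.

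No GR peak lay within 1 kb of the Myog TSS, and the nearest was 12607 bases downstream in an intron of Ppfia4, a liprin gene. The GR peaks nearest to Myog formed a group upstream. Their midpoints were 15315, 14072, 13828 and 13585 bases from the TSS and their widths 288, 197, 147 and 192 bases. The last 3 were separated by gaps of 72 and 74 bases and were of the enhancer class, and the first, 1000 bases further out, overlapped H3K4me1 alone. The whole group spanned 1970 bases. Whether closely spaced peaks are separate binding events or pieces of one enriched region was not tested, and with peaks under 200 bases apart merged the Myog window held 7 GR peaks in place of 10.

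The 200 bases around the midpoint of the peak 14072 bases upstream are shown because it is the member of this group with AGAACA, in capitals.
Myog upstream 14072, chr1:134275818-134276017 (plus strand): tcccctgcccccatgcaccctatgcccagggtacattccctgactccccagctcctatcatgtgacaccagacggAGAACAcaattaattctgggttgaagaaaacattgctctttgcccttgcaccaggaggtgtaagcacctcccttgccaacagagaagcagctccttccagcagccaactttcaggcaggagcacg
None of the 4 GR peaks of this group held CAGCTG or CAGGTG in the window, unlike those upstream of Myod1, although each held at least 1 E box of another kind. The other 6 GR peaks of the Myog window lay nearest to Mybph, a myosin-binding protein gene (2 peaks of 642 and 123 bases, both overlapping the same CTCF peak), Adora1 (1), Ppfia4 (1) and Tmem183a (2). The 10 GR peaks in all were reached by 14.8% of genes.

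Myf5, on the minus strand of chromosome 10 (chr10:107482908-107486134, 3 exons), is the first of the 4 genes to be expressed in the mouse embryo, and in adult muscle it is known from satellite cells. It had an H3K4me1 peak of 1345 bases over its TSS (chr10:107485636-107486980) and another of 363 bases in the gene, and no peak of the other 5 lists within 1 kb. H3K4me1 was found at 19.6% (18.8 to 20.5%) of genes with neither H3K27ac nor H3K4me3, so a peak there without either mark was the less common state. The peaks of GR, Pol2, H3K27ac and H3K4me3 nearest to the Myf5 TSS, at 8540, 5614, 5423 and 5551 bases, all lay nearer to the Myf6 TSS, which is 8603 bases away.

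The Myf5 promoter of the same RefSeq table is shown beside that of Myog, since the Myf5 start site carried H3K4me1 alone. Capitals mark TATAAA, which begins at position 20, inside the transcribed bases, and which 13.6% of the promoters held.
Myf5 promoter, chr10:107486085-107486384 (minus strand): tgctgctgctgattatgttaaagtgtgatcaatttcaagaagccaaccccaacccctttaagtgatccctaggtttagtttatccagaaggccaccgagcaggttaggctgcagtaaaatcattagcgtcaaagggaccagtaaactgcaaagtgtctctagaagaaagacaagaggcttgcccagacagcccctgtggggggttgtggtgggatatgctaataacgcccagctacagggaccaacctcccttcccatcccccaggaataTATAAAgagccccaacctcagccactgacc
This window held no CANNTG, MEF3, MEF2 or AGAACA, which says only that these letters are not in it.

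The chromosome 10 locus held 41 peaks in all, 5 of GR, 6 of Pol2, 15 of H3K27ac, 2 of H3K4me3 and 13 of H3K4me1, and all lay nearest to Myf5 or Myf6. They spanned 85245 bases, from inside the Myf5 gene to the Ptprq introns. From the first of these peaks to the edge of the window downstream of Myf5, 97934 bases held 0 peaks of any list. The 5 GR peaks within 100 kb were reached or exceeded by 39.7% of genes, and the 15 H3K27ac peaks by 22.7%.

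The loci differed in their distance to CTCF. The nearest CTCF peak was 2603 bases from the Myod1 TSS, overlapping the end of the gene, with a deposited fold of 6.16, against a median of 7.59 in the list. It was 41939 bases from Myog, in Ppfia4. It was 1399457 bases from Myf5 and 1408060 bases from Myf6, the same peak for both. The median over all genes was 80.3 kb, and 3.66% of genes were at least as far from a CTCF peak as Myf5. Within 100 kb, 57.5% of all genes had a CTCF peak, as Myod1 and Myog did and Myf5 and Myf6 did not. The CTCF core motif, searched by its name, occurred in 3 of the 5 CTCF peaks of the loci, against 50.6% of all CTCF peaks. The CTCF list was the shortest of the 6, and what a deeper library would hold near Myf5 and Myf6 is not known.

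At the edge of the 100 kb windows, the farthest GR peak inside and the nearest outside lay 90768 and 106619 bases from Myod1, 93449 and 115915 bases from Myog, and 72540 and 369167 bases from the closer TSS of Myf5 and Myf6. All 4 genes had a GR peak within 25 kb, against 59.8% (59.1 to 60.4%) of all protein-coding genes. Myog had 5, Myod1 3, and Myf5 and Myf6 the same 3, against a median of 1. At least 3 were found at 24.1% of genes and at least 5 at 9.08%.

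**Figure D3:**
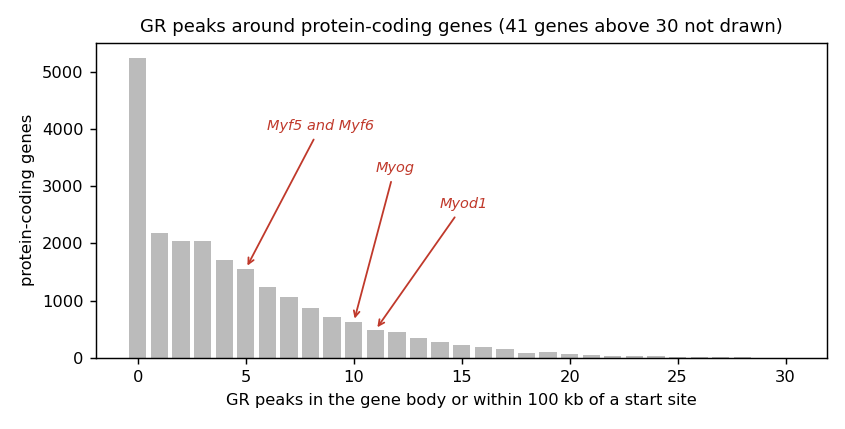
Number of protein-coding genes (y axis) by number of GR peaks in the gene body or within 100 kb of a TSS (x axis, 41 genes above 30 not drawn), with arrows at Myod1, Myog, and Myf5 and Myf6. Myod1 with 11 and Myog with 10 lie above the median of 3, and Myf5 and Myf6 share their 5.

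The 26 GR peaks of the 3 loci were more often of the enhancer class and less often at promoters than the list as a whole. The enhancer class held 14 of 26 (53.8%), against 19.3% (18.8 to 19.8%) of all GR peaks, and the promoter class, which overlaps H3K4me3, held 4 of 26 (15.4%), against 53.2% (52.6 to 53.9%). H3K4me1 alone was overlapped by 6 (23.1%), against 19.9%, H3K27ac alone by 1, against 0.811%, and no histone mark by 1, against 6.78%. Counted whatever the other marks, H3K4me1 was overlapped by 22 of 26 (84.6%), against 65.6%. Of the 26, 6 (23.1%) overlapped Pol2, against 51.3% of all GR peaks. Of the 26, 12 lay nearer to other genes, and the enhancer class held 8 of the 14 nearest to one of the 4 genes (57.1%). By locus the class held 7 of 11 at Myod1, 5 of 10 at Myog, and 2 of 5 at Myf5 and Myf6. Those at Myog include the 3 peaks separated by gaps of 72 and 74 bases, and the share with these merged was not computed. With at least 50% of a GR peak covered by each mark, the enhancer class held 8 of 26 (30.8%), against 12.5% (12.0 to 12.9%) of all GR peaks. The part of the window size in these differences was not tested. H3K27ac was overlapped by 19 of 26 (73.1%), against 69.3%, CTCF by 2 (7.69%), against 7.09%, and 5 (19.2%) lay in an H3K27ac gap, against 21.8%, all close to the background. The midpoint lay inside an H3K27ac peak for 11 (42.3%), against 41.7%.

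**Figure D4:**
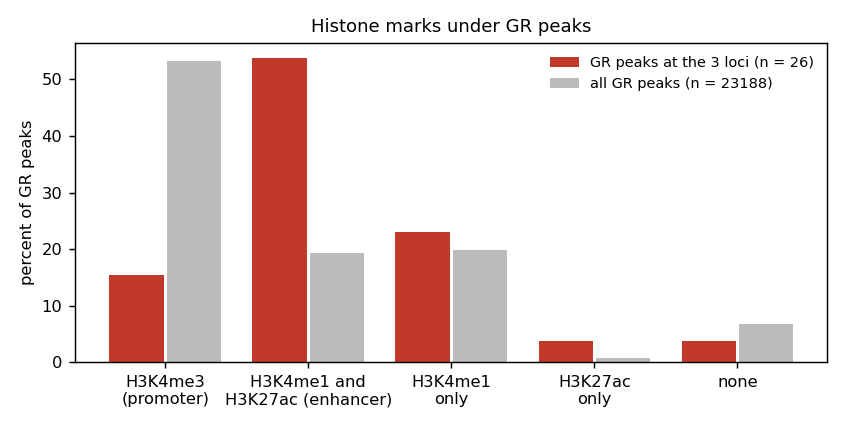
Share in percent of the 26 GR peaks at the 3 loci and of all 23188 GR peaks in each class of histone marks (bars, no intervals drawn). The enhancer class holds 53.8% at the loci and 19.3% in the list, and the promoter class 15.4% and 53.2%.

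Over the 26 GR windows of 200 bases, both strands searched, an E box (CANNTG) occurred in 22, against 57.9% of all GR windows. CAGCTG, itself a CANNTG match, occurred in 9, against 18.2%, and CAGGTG in 3, against 11.4%. The 9 windows with CAGCTG were 7 of 11 at Myod1, 2 of 10 at Myog and 0 of 5 at Myf5 and Myf6. AGAACA occurred in 4 of 26, against 17.2%. The full element, AGAACA and TGTTCT 3 bases apart, occurred in 0 of 26 and in 0.177% of all GR windows, and with 1 mismatch in 0 of 26 and 1.57%. A MEF2 match occurred in 2 of 26, against 2.80%, and 1 of the 2 was in the GR peak at the Myf6 TSS. MEF3 and CArG matches occurred in 0 of 26, against 0.552% and 0.755%. TATAAA occurred in 1, also at the Myf6 TSS, against 4.68%, and the CTCF core in 2, against 9.65%. The promoter class was 15.4% of the 26 and 53.2% of all GR peaks, and these motif shares were not matched by class.

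The genes most like each member were taken as those with the smallest summed difference, over the 6 lists, in the percentage of bases covered within 5 kb of the gene's 5′ end. For Myod1 they were Cacnb1, a calcium channel subunit gene of muscle, Pank4 and Ccn1, with summed differences of 11.2, 11.4 and 14.8 percentage points, against a median of 138 over all genes. For Myf6 they were Klhl41, which encodes a sarcomere-associated protein, Apex2 and Myl1, a myosin light chain gene, at 19.2, 25.4 and 29.1 points, against a median of 129.9. For Myog they were Npas4, Diras1 and Lbp at 9.53, 10.9 and 11.1 points, against 69.0. For Myf5 they were Camk2a, Hand1 and Olig3, all at under 0.1 points, where the H3K4me1 cover is the only one that is not 0.

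The members were not each other's closest genes. Myod1 and Myf6 differed by 110 points, with 6194 genes closer to Myod1 and 3905 closer to Myf6. Myod1 and Myog differed less, by 97.7 points, with 4524 genes closer to Myod1 and 21455 closer to Myog. Myog and Myf5 differed by 50.02 points, the smallest difference among the 4 genes, and Myog and Myf6 by 162, the largest. The Myf5 and Myf6 windows overlap and still differed by 139 points. Likeness here rests on 6 libraries.

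The partners and regulators of the factors were described through gene lists. All 3 E proteins, Tcf3, Tcf4 and Tcf12, had the Myod1 combination at a start site, against 33.0% of all genes. Tcf4 had 14 GR peaks within 25 kb, against a median of 1 over all genes. These windows too were taken around every annotated TSS, so genes with several TSSs were searched over more bases. Of 14 inhibitors of myogenic helix-loop-helix factors, 12 had GR within 25 kb and 10 at a start site, 11 had Pol2, and 14 had H3K4me3. Bhlhe40 and Bhlhe41, transcriptional repressors of the clock, each had 7 GR peaks within 25 kb, and Id3, which binds E proteins and keeps them from DNA, had 6. The background shares are those given above, 59.8% for GR within 25 kb. At a start site they are 43.3% for GR, 47.0% for Pol2 and 61.5% for H3K4me3. Among genes with H3K4me3 at a start site, as all 14 inhibitors had, the shares were 69.7% for GR and 76.1% for Pol2. The inhibitors, at 71.4% and 78.6%, were close to these shares.

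Of 10 upstream regulators, 8 had GR within 25 kb, 7 had Pol2 and 10 had H3K4me3 at a start site. The shares of all genes were 59.8%, 47.0% and 61.5%. Mef2d, a partner of the myogenic factors, had 8 GR peaks within 25 kb, and Eya1, a transcriptional coactivator, and Mef2c had 3 each. Pax3 and Pax7, which act above the myogenic factors in progenitors and satellite cells, had H3K4me3 and H3K4me1 and no GR, Pol2 or H3K27ac at a start site, and were named after their values were seen.

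Of 26 target genes, 22 had GR within 25 kb. At a start site 13 had GR, 17 had Pol2 and 17 had H3K4me3. Beside these counts, the shares of all genes were 59.8% for GR within 25 kb, and 43.3%, 47.0% and 61.5% at a start site. Tnnt3, a fast troponin, had 21 GR peaks within 25 kb, Trim63, the ubiquitin ligase MuRF1, had 16 and Hdac4 had 13. Myh3 and Chrng, the embryonic forms of a myosin and of an acetylcholine receptor subunit, had no peak of any list within 1 kb of a TSS. The Myf5 state of H3K4me1 alone was found at 7 of the 26 targets (26.9%), against 6.86% of all genes. Of the marker lists, it was found at 2 of 11 satellite cell, 1 of 4 Schwann cell and 1 of 4 liver genes. It was at 0 of the muscle fibre, endothelial, fibroblast, immune and adipocyte genes. The 7 targets were Actc1, Myh8, Chrna1, Chrnd, Chrne, Mymk and Mymx, named after their values were seen. Among them, Mymk and Mymx encode the fusion proteins of myoblasts, Chrna1, Chrnd and Chrne are acetylcholine receptor subunits of the synapse, and Actc1 and Myh8 encode an actin and a myosin of developing muscle. None of the 26 had the Myog combination, which was found at 0.228% of all genes.

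**Figure D5:**
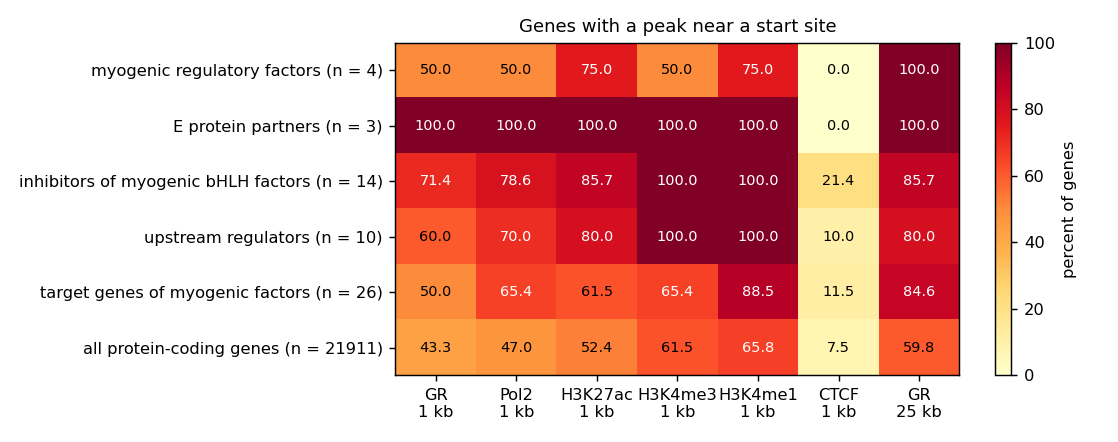
Share in percent of the genes of the 4 myogenic regulatory factors, of 4 lists of related genes and of all 21911 protein-coding genes with a GR peak within 25 kb or a peak of each list within 1 kb of a TSS. The myogenic regulatory factors are at 2 of 4 for GR, Pol2 and H3K4me3 at the start site, and the E proteins are at 3 of 3 for every list but CTCF.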

How the data were processed

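Nuclei of mouse skeletal muscle were used for ChIP-seq with 6 antibodies, 1 library each, and 2 inputs, of which 1 served GR, H3K27ac, Pol2 and H3K4me1 and the other CTCF and H3K4me3, per the labels. Libraries took 10 ng of DNA and 7 PCR cycles, per the labels' protocols. Bowtie 1.0.0, bcl2fastq 2.17.1.14, MACS2 and mm10 are named in the submitters' processing notes, without their roles. The deposited lists give peak positions, and for CTCF and H3K4me3 the authors also deposited a score, a fold enrichment (ratio) and the −log10 p-value and q-value of each peak. Each deposited list stands for 1 library. Neither thresholds nor read depth are given in these sources. Wide peaks can be split by a caller, so counts of peaks depend on it.

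Peaks on the mitochondrial genome were left out. Overlap meant at least 1 shared base. Genes came from the GENCODE annotation of GRCm38, and sequences from RefSeq's GRCm38.p6. Scripts used Python 3.11.15, NumPy 2.4.6, pandas 2.3.3, SciPy 1.17.1 and Matplotlib 3.10.9, and were tested on simulated data. Shares carry exact Clopper-Pearson intervals. The named genes were the 4 members, per list up to 3 genes with the most GR peaks within 25 kb and up to 3 with no peak at a start site, neighbours nearest to a peak, and the 3 most alike genes per member. Outside this rule, Ptprq is named as the host of 2 peaks, and 9 genes of the lists after their values were seen. In turn, 1 gene that the rule names is not reported here. The members and lists were chosen with earlier results of these data known.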

Additional observations from a re-analysis of the deposited data

How the results depend on the processing

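Of 65 alternative values of the main counts, 55 stayed within 1.5 times. That tally is a weak check, since some counts were 0 and a count out of 4 genes can take few values. H3K4me1 at 2 or 4 start sites in place of 3 counted as within 1.5 times. With the midpoint of a peak required in the window, H3K4me3 was at 1 of 4 start sites in place of 2, against 60.7% of all genes, since the midpoint of the wide Myf6 peak is 1012 bases into the gene. With a window of 5 kb, CTCF was at 1 of 4 in place of 0, against 13.4% of all genes. The number of GR peaks at Myod1 was 3 within 25 kb and 6 in the widest 50% of the list, in place of 11. At Myog it was 6 within 50 kb, 5 within 25 kb and 3 in the widest 50%, in place of 10. At Myf5 and Myf6 it was 3 within 50 kb and 3 within 25 kb, in place of 5. Smaller windows hold fewer peaks by construction. With 50% of a GR peak covered by each mark, the enhancer class held 8 of 26 in place of 14, against 12.5% of all GR peaks in place of 19.3%. Of 32 alternative values of the share of all genes with a peak at a start site, 25 moved beyond the counting interval, as did all 5 shares taken over genes with H3K4me3. No paired analysis was possible because each antibody had 1 library and nothing was tested. Unknown depth limits what the absence of a peak shows.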
